A study of Mus musculus with 8 samples.

Results

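The genes described here are 10 genes through which the liver answers to and handles glucocorticoids: 7 direct targets of the glucocorticoid receptor (Fkbp5, Tsc22d3, Zbtb16, Ddit4, Errfi1, Map3k6 and Sgk1), the receptor itself (Nr3c1), the steroid-activating enzyme gene Hsd11b1, and Serpina6, which encodes the binding globulin of the hormone in plasma. They were matched by symbol among the 55487 genes of the count tables, and all 10 were among the 13400 genes with enough counts to be tested. RNA was sequenced from the livers of 4 Control mice and 4 Mc1r LKO mice to ask how loss of the melanocortin receptor MC1R in hepatocytes changes gene expression in the liver. Control mice (numbers 154, 159, 181 and 193) were Mc1r fl/fl without Cre, and Mc1r LKO mice (numbers 141, 156, 157 and 182) were Mc1r fl/fl with an Alb-Cre transgene, in which the albumin promoter drives Cre in hepatocytes. All were males that ate the Western diet for 12 weeks from the age of 8 weeks and were killed with CO2 after a fast of 4 hours. The RNA came from whole liver, whose other cell types keep Mc1r, and in such bulk samples fewer cells of a type and less RNA per cell cannot be told apart.

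Glucocorticoids (corticosterone in mice, cortisol in humans) are secreted by the adrenal cortex under the control of the pituitary hormone ACTH and follow stress, fasting and the time of day. In the liver they enter hepatocytes and bind the glucocorticoid receptor, which leaves its HSP90 chaperone complex, moves to the nucleus and binds DNA at imperfect palindromes, made of the hexamer AGAACA and its reverse complement with a short spacer between them. Hepatocytes also regenerate active hormone from its inactive 11-keto form by 11β-hydroxysteroid dehydrogenase type 1 (Hsd11b1) and clear it by A-ring reductases and CYP3A enzymes, and the liver secretes the globulin (Serpina6) that carries it in blood.

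The 10 genes were proposed with their difference between the genotypes already known. Their fold changes are therefore given as a description, with a standard error and without a p-value, and they are not independent evidence of a direction. Where members are said to pass a threshold or cut-off, nothing is read from it. Levels are in CPM, that is, counts scaled to a common library size with TMM factors, which allow for differences in composition between libraries. Each fold change is the log2 ratio of Mc1r LKO to Control from an edgeR quasi-likelihood fit, so that 1 is a doubling and values above 0 are higher in Mc1r LKO mice.

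The Mc1r gene (ENSMUSG00000074037, chromosome 8 of GRCm38, 123407107 to 123410744) had 0 counts in all 8 mice, which allows up to 3 counts or 0.121 to 0.278 CPM depending on the mouse, and so the genotype labels could not be checked against it. Total counts ranged from 10773151 to 24763375. Control mouse 181 and Mc1r LKO mouse 182 stood apart on the first principal component of all tested genes, with scores of 27.8 and 59.3 against -28.2 to -7.03 in the other mice, and the members' values without them are given beside the results. The 7 hepatocyte markers that were found summed to 77822 to 96608 CPM in Control and 85159 to 113045 CPM in Mc1r LKO mice. None of the 6 Kupffer cell markers passed the adjusted or the unadjusted threshold used below, and all 6 had log2 fold changes below 0, of which Timd4 and Marco turned above 0 when 1 mouse was left out. Their sums were 226 to 514 CPM in Control mice, with 514 CPM in mouse 159 and at most 329 CPM in the other Control mice, and 158 to 332 CPM in Mc1r LKO mice. Their part in the results below was not tested. Of 6 adrenal cortex markers, Cyp11a1, Cyp11b1, Cyp11b2 and Mc2r had 0 counts in every mouse, and the sum of the list was 3.35 to 10.3 CPM in Control and 2.40 to 12.3 CPM in Mc1r LKO mice. For the markers of T and NK cells, B cells, neutrophils, sinusoidal endothelium, stellate cells, cholangiocytes and adipocytes, the sums of the genotypes overlapped and no gene passed the unadjusted threshold with all 8 mice.

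Promoter sequences of the members are shown because the receptor acts through DNA. RefSeq promoters on GRCm38.p6, each spanning 250 bases before to 50 bases after a transcript start, were found for 7 of the 10 members (15 promoters), and Zbtb16, Nr3c1 and Serpina6 had no entry. Both strands were searched for the full palindrome (AGAACA, then 3 bases of any kind, then its reverse complement TGTTCT), for its core ACANNNTGT and for the hexamer AGAACA alone, so that every match of the full palindrome is also a match of the other motifs. The full palindrome was present in 3 of 32851 mouse promoters (0.00913%), and Sgk1 promoter 5 was among them. Below are this Sgk1 promoter (promoter 5 of 6, chr10:21993640-21993939, plus strand), the Tsc22d3 promoter with a hexamer (promoter 2 of 3, chrX:140600473-140600772, minus strand), the Map3k6 promoter with a core match (chr4:133240568-133240867, plus strand), and the promoter of Fkbp5, the member with the largest fold change, which held no match of any of these motifs (chr17:28486100-28486399, minus strand). They run 5′ to 3′ in the direction of transcription, and capitals mark the motif matches.
Sgk1 promoter 5: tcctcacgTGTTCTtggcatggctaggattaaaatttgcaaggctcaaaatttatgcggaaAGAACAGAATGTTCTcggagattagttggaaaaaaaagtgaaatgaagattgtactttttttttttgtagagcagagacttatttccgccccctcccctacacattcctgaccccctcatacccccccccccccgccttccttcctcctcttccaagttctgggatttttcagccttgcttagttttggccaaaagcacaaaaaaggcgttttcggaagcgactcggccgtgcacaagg
Tsc22d3 promoter 2: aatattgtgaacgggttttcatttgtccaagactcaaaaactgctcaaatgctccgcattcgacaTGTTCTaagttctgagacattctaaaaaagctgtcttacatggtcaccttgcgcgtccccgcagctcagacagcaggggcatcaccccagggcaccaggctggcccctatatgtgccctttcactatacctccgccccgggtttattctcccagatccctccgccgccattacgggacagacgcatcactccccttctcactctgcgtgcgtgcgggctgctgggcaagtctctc
Map3k6: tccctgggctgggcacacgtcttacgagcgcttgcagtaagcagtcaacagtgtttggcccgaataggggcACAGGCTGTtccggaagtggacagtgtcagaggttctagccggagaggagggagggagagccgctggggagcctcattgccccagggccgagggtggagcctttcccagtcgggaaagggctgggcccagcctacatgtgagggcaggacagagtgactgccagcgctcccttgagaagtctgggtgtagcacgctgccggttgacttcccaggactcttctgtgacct
Fkbp5: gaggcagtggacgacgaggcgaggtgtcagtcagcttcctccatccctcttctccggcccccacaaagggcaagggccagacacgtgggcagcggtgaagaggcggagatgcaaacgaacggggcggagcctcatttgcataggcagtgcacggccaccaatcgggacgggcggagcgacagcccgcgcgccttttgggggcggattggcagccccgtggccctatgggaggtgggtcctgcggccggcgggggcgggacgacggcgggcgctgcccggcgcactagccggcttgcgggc
In the Sgk1 promoter the full palindrome began at position -189 from the transcript start, and another hexamer, on the other strand, began at -242. The Tsc22d3 hexamer lay on the other strand from -185, and the Map3k6 core match began at -179. Over the members, the hexamer was present in 4 of the 15 promoters (26.7%), all of Sgk1 or Tsc22d3, against 19.0% of all mouse promoters. The core was present in 3 promoters (20%), of Sgk1 and Map3k6, against 6.85% of all promoters. These percentages count the promoters of 1 gene separately, and Sgk1 alone held 6 of the 15. By gene, the hexamer and the core were each present in 2 of the 7 members. The share by gene over all mouse genes was not counted, so nothing is read from this. The promoters of Fkbp5, Ddit4, Errfi1 and Hsd11b1 held none of the motifs in these windows. Sequence outside these windows was not searched, and a relation of the motifs to the fold changes was not tested.

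Fkbp5 (ENSMUSG00000024222, chromosome 17, 28399094 to 28517527, minus strand) encodes FKBP51, a co-chaperone of HSP90 that lowers the affinity of the receptor for its hormone and is itself induced by the receptor. Its level was 20.7, 22.5, 16.1 and 22.9 CPM in Control mice 154, 159, 181 and 193. In Mc1r LKO mice 141, 156, 157 and 182 it was 51.0, 42.5, 37.4 and 44.6 CPM. Every Mc1r LKO mouse was above every Control mouse, with a gap from 22.9 to 37.4 CPM between the genotypes. The means were 20.5 ± 3.12 CPM and 43.9 ± 5.62 CPM (SD, n = 4 each, as for all means that follow), a ratio of 2.14 and a log2 fold change of 1.09 (SE 0.13). With 1 mouse left out at a time the log2 fold change stayed between 0.99 and 1.17, and without mice 181 and 182 it was 0.99 (SE 0.13). Fkbp5 was the only member whose genotypes did not overlap. Of all tested genes, 4.16% did not overlap, 2.63% higher in Mc1r LKO mice and 1.54% lower, and nothing is read from this count because the members were chosen on the same contrast.

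Tsc22d3 (ENSMUSG00000031431, chromosome X, 140539528 to 140600659, minus strand) encodes GILZ, a leucine zipper protein that mediates anti-inflammatory actions of glucocorticoids. Control mice had 60.2, 45.8, 105 and 53.7 CPM in the order given above, and Mc1r LKO mice had 109, 134, 89.6 and 171 CPM. Control mouse 181 was above Mc1r LKO mouse 157, and in the other 15 of 16 pairings of a mouse of each genotype the Mc1r LKO mouse was higher. The means were 66.2 ± 26.6 and 126 ± 35.1 CPM, and the log2 fold change was 0.93 (SE 0.27). The mice that stand apart pulled it in opposite directions, to 1.24 without mouse 181 and to 0.74 without mouse 182, and it was 1.06 (SE 0.16) without both.

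Errfi1 (ENSMUSG00000028967, chromosome 4, 150853919 to 150868892, plus strand) encodes MIG6, a feedback inhibitor of the EGF receptor. It had 535, 458, 919 and 459 CPM in Control mice and 895, 844, 800 and 1130 CPM in Mc1r LKO mice. Control mouse 181 reached the range of the Mc1r LKO mice, and the other 3 Control mice lay below all of them. The means were 593 ± 220 and 917 ± 147 CPM, with a log2 fold change of 0.63 (SE 0.22), which was 0.92 without mouse 181 and 0.81 (SE 0.10) without mice 181 and 182. Errfi1 and Tsc22d3 had a like pattern over the 8 mice. By the root mean square difference of log2 CPM centred on each gene's mean, Errfi1 was the nearest of all tested genes to Tsc22d3 (0.21), and Tsc22d3 was the 5th nearest to Errfi1. No other member was among the 5 nearest genes of a member.

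Zbtb16 (ENSMUSG00000066687, chromosome 9, 48654297 to 48836222, minus strand) encodes PLZF, a zinc finger repressor that glucocorticoids induce in many cell types. It had 10.3, 19.6, 7.19 and 24.0 CPM in Control mice and 35.3, 39.6, 24.4 and 23.4 CPM in Mc1r LKO mice. The Control mice spread more than 3-fold, with mouse 181 the lowest, and the genotypes touched only where Control mouse 193 was above Mc1r LKO mouse 182. The means were 15.3 ± 7.84 and 30.7 ± 7.999 CPM and the log2 fold change was 1.00 (SE 0.34). It ranged from 0.77 without mouse 181 to 1.34 without mouse 193, and was 0.88 (SE 0.28) without mice 181 and 182.

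Ddit4 (ENSMUSG00000020108, chromosome 10, 59949669 to 59951834, minus strand) encodes REDD1, an inhibitor of mTORC1 signalling that also answers to energy stress and hypoxia. It had 11.5, 8.27, 11.2 and 7.71 CPM in Control mice and 18.4, 30.9, 17.5 and 9.30 CPM in Mc1r LKO mice. Mouse 156 was far above the other Mc1r LKO mice, and mouse 182 lay within the Control range. The means were 9.65 ± 1.94 and 19.0 ± 8.93 CPM, and the log2 fold change of 0.97 (SE 0.31) was 0.64 without mouse 156, 1.20 without mouse 182 and 1.28 (SE 0.24) without mice 181 and 182.

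Map3k6 (ENSMUSG00000028862, chromosome 4, 133240818 to 133252929, plus strand) encodes ASK2, a kinase of the stress-activated MAP kinase cascades. It was the member with the fewest counts, 8 to 49 per mouse. Control mice had 1.01, 0.744, 1.25 and 1.75 CPM and Mc1r LKO mice 2.56, 3.18, 1.90 and 1.64 CPM. Only Control mouse 193 and Mc1r LKO mouse 182 overlapped. The means were 1.19 ± 0.429 and 2.32 ± 0.695 CPM, and the log2 fold change was 0.92 (SE 0.34), between 0.73 and 1.18 with 1 mouse left out and 1.06 (SE 0.39) without mice 181 and 182.

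Sgk1 (ENSMUSG00000019970, chromosome 10, 21882184 to 21999903, plus strand) encodes a serum- and glucocorticoid-regulated kinase that acts on ion transport. Control mice had 16.1, 9.95, 16.2 and 13.9 CPM and Mc1r LKO mice 18.5, 19.0, 17.0 and 14.4 CPM. Mouse 159 was the lowest Control mouse, and Mc1r LKO mouse 182 fell within the Control range. The means were 14.1 ± 2.93 and 17.2 ± 2.08 CPM, and the log2 fold change was 0.29 (SE 0.16). It was 0.17 without mouse 159 and 0.37 without mouse 182, and without mice 181 and 182 it was 0.44 (SE 0.17), with no overlap between the genotypes.

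**Figure D1:**
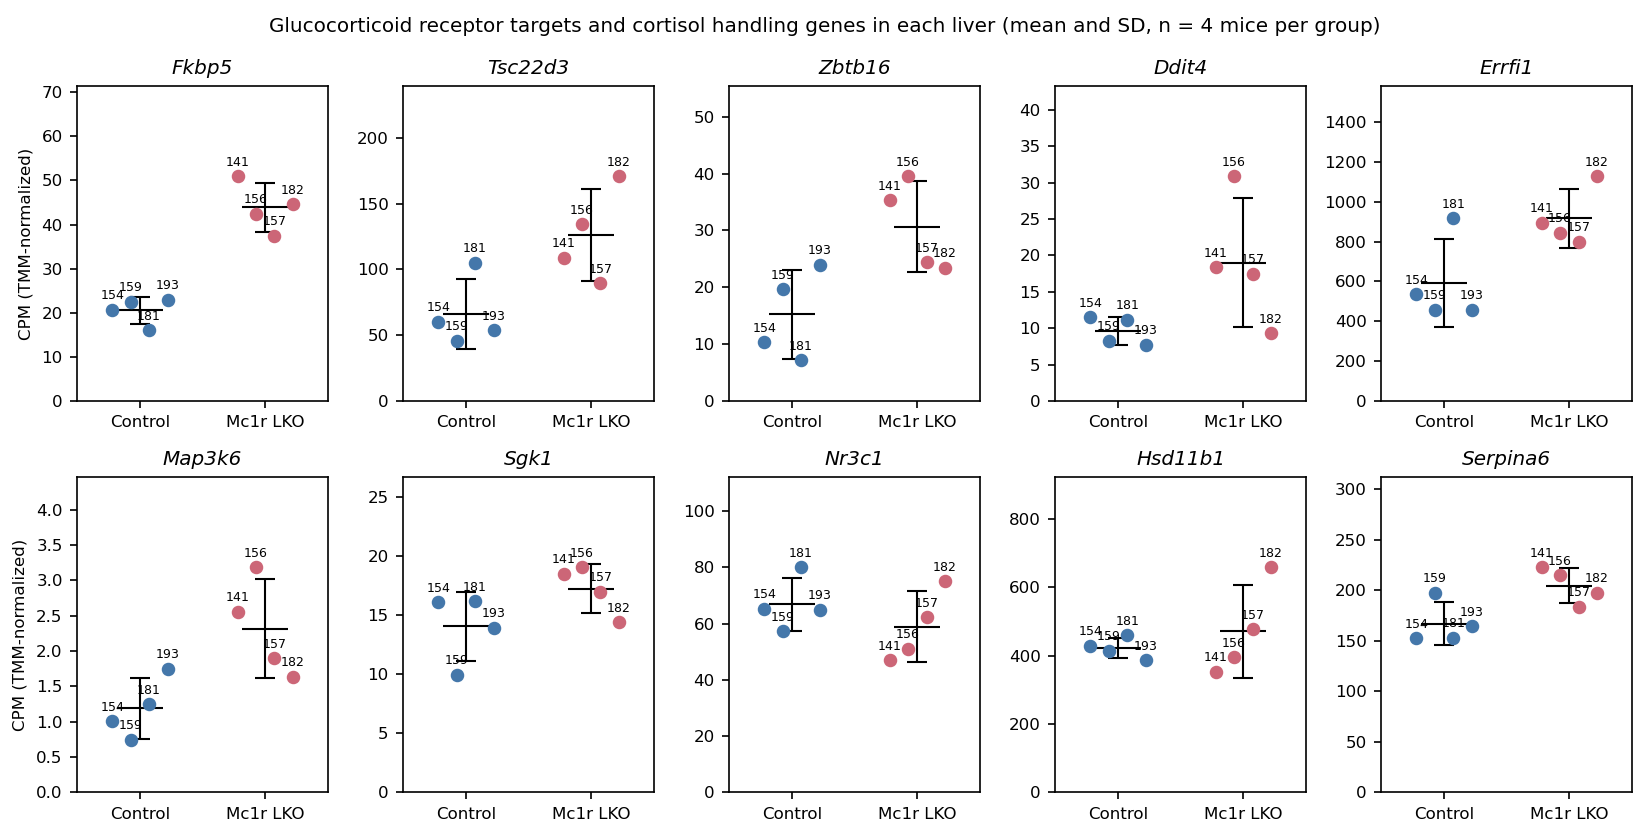
Level of each of the 10 genes in CPM (TMM-normalized, linear axis from 0) in the 4 Control and 4 Mc1r LKO livers, with a point for each mouse labelled by its number and bars for the mean and SD. In Fkbp5 all Mc1r LKO mice (37.4 to 51.0 CPM) sit above all Control mice (16.1 to 22.9 CPM), whereas in the other 9 genes the genotypes overlap.

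The receptor and the genes that set hormone supply had smaller differences than most of the targets. Nr3c1 (ENSMUSG00000024431, chromosome 18, 39410545 to 39519421, minus strand) encodes the glucocorticoid receptor. Its level was 65.2, 57.4, 79.9 and 64.9 CPM in Control mice and 46.9, 51.1, 62.2 and 75.1 CPM in Mc1r LKO mice. The genotypes overlapped widely, with mouse 181 the highest Control and mouse 182 the highest Mc1r LKO mouse. The means were 66.8 ± 9.45 and 58.8 ± 12.6 CPM. Nr3c1 was the only member with a log2 fold change below 0, at -0.18 (SE 0.16), and it stayed between -0.32 and -0.083 with 1 mouse left out and was -0.22 (SE 0.12) without mice 181 and 182.

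Hsd11b1 (ENSMUSG00000016194, chromosome 1, 193221634 to 193264075, minus strand), the reductase that regenerates active hormone inside the hepatocyte, had 430, 415, 460 and 387 CPM in Control mice. The Mc1r LKO mice had 353, 395, 478 and 659 CPM and lay on both sides of the Control mice. The means were 423 ± 30.4 and 471 ± 135 CPM with a log2 fold change of 0.16 (SE 0.18). Mouse 182 decided its sign, since the log2 fold change was -0.045 without that mouse and 0.00096 (SE 0.12) without mice 181 and 182.

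Serpina6 (ENSMUSG00000060807, chromosome 12, 103646630 to 103657212, minus strand) encodes corticosteroid-binding globulin, the plasma carrier of the hormone that hepatocytes secrete. It had 153, 198, 153 and 165 CPM in Control mice and 223, 215, 184 and 198 CPM in Mc1r LKO mice. Control mouse 159 reached the lower Mc1r LKO mice, and in 14 of 16 pairings the Mc1r LKO mouse was higher. The means were 167 ± 21.1 and 205 ± 17.5 CPM and the log2 fold change was 0.29 (SE 0.11), between 0.26 and 0.39 with 1 mouse left out and 0.28 (SE 0.12) without mice 181 and 182.

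Over the 10 members, 9 log2 fold changes were above 0 and their median was 0.77, beside -0.011 over all 13400 tested genes. The 7 targets had a median of 0.93, between 0.29 for Sgk1 and 1.09 for Fkbp5. No gene of the table passed an adjusted p of 0.05 by the quasi-likelihood test of edgeR after Benjamini-Hochberg adjustment (0% of 13400), while 901 genes (6.72%) had an unadjusted p under 0.05, limma-voom called 0 and DESeq2 called 16, with the member Fkbp5 and the glucocorticoid-induced genes Cebpd and Angptl4 among them. A cut-off used here for counting, an unadjusted p under 0.05 and a log2 fold change of 0.25 or more in size, was passed by 5.31% of the tested genes, 2.64% in the higher direction and 2.66% in the lower (354 and 357 genes, or 169 and 500 with scaling by library size only). All members but Sgk1, Nr3c1 and Hsd11b1 (7 of 10) passed it on the higher side, and again nothing is read from a count on the contrast that chose them.

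The targets did not rank the mice alike within a genotype. Among Mc1r LKO mice, mouse 182 was the highest for 4 members (Tsc22d3, Errfi1, Nr3c1 and Hsd11b1) and the lowest for 4 others (Zbtb16, Ddit4, Map3k6 and Sgk1), in which mouse 156 was the highest. Among Control mice, mouse 181 was the highest for 5 members (Tsc22d3, Errfi1, Sgk1, Nr3c1 and Hsd11b1) and the lowest for Fkbp5 and Zbtb16. Mice 181 and 182 deviated from their genotype means in the same direction in 6 of the 10 members. Mouse 182 also had the highest level of the heat shock genes Hsp90aa1 (281 CPM), Hspa8 (1387 CPM) and Dnajb1 (181 CPM, against 21.5 to 47.3 CPM in the other mice), and the part of this in the members' levels was not tested. With both mice left out, 3 mice remained in each group, and all 7 targets were higher in Mc1r LKO mice without overlap, beside 7.55% of the 13385 genes then tested. The unadjusted cut-off was then passed by 8 members on the higher side, beside 3.26% of the genes, and the median log2 fold change of the 10 members was 0.85. Nothing is read from these counts either, because the members were chosen on the same contrast. Every overlap among the targets with all mice involved mouse 181 or mouse 182, which is the same observation put another way.

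**Figure D2:**
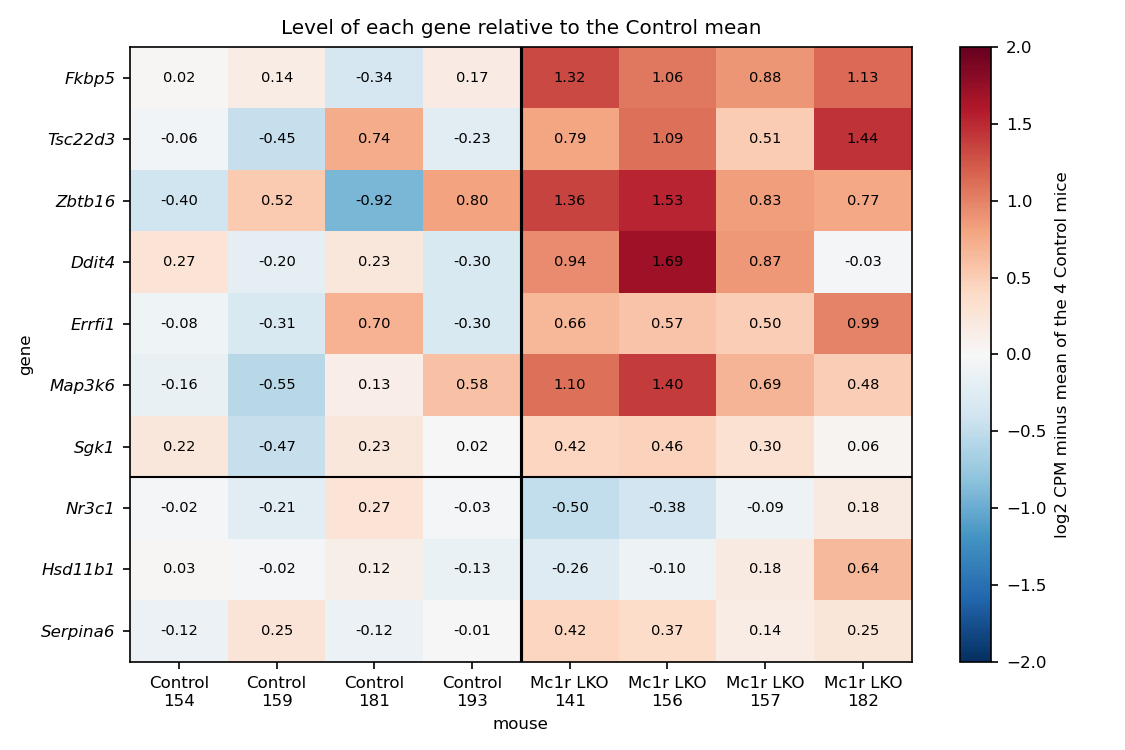
Log2 CPM of each gene in each mouse minus the mean of the 4 Control mice, in colour (red above, blue below) and as a number in each cell, with the 7 targets above the horizontal line and the receptor, enzyme and binding globulin genes below it. Control mouse 181 is at 0.74 for Tsc22d3 and -0.92 for Zbtb16, and Mc1r LKO mouse 182 is at 1.44 for Tsc22d3 and -0.03 for Ddit4.

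**Figure D3:**
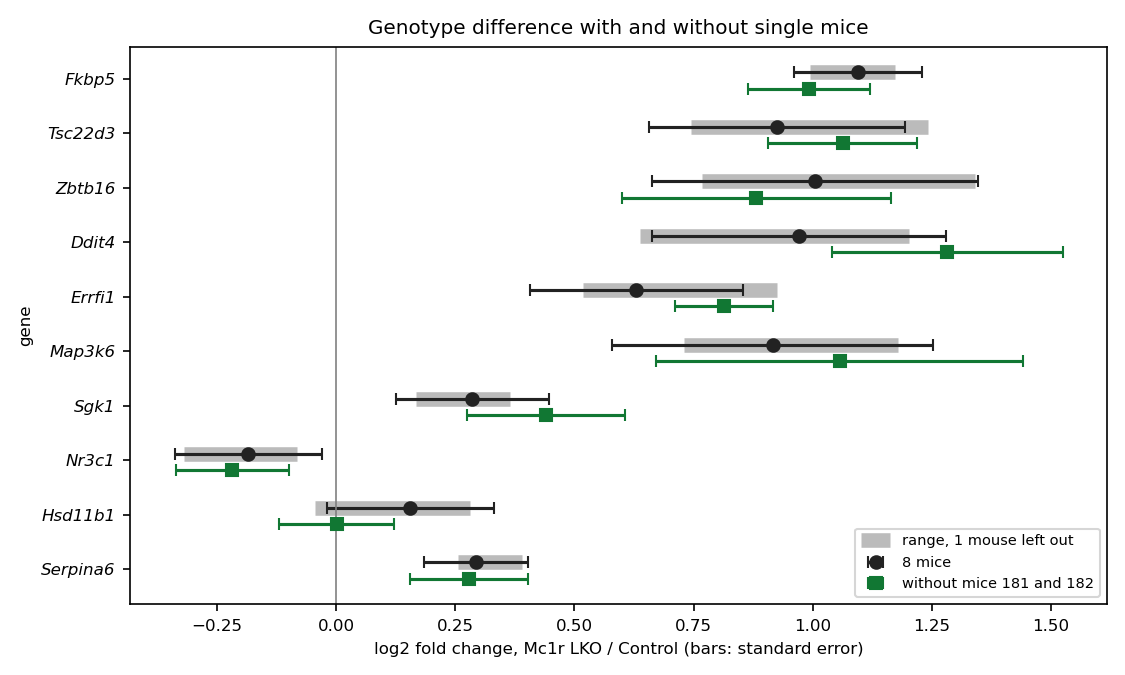
Log2 fold change of Mc1r LKO over Control for each gene with all 8 mice (circles) and without mice 181 and 182 (squares), with bars for the standard error and a grey band for the range when 1 mouse is left out at a time. The band of Fkbp5 (0.99 to 1.17) is narrower than those of Tsc22d3 (0.74 to 1.24) and Zbtb16 (0.77 to 1.34), and the band of Hsd11b1 crosses 0.

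Per length of annotated exons, the members covered a wide range of levels over the 8 mice. Errfi1 had the highest mean level, 211 CPM per kb (127.8 to 316 over the mice), followed by the hepatocyte enzyme and secretory genes Serpina6 at 106 CPM per kb (86.7 to 126) and Hsd11b1 at 105 CPM per kb (83.0 to 155). The range of Errfi1 overlapped that of Hsd11b1 and lay above that of Serpina6, and Serpina6 and Hsd11b1 overlapped. Tsc22d3 had a mean level of 22.1 CPM per kb (10.6 to 39.4), Nr3c1 8.18 CPM per kb (6.11 to 10.4) and Ddit4 8.17 CPM per kb (4.39 to 17.6). Ddit4 overlapped both Tsc22d3 and Nr3c1, and Tsc22d3 lay just above Nr3c1. Zbtb16 (4.35 CPM per kb, 1.36 to 7.49), Fkbp5 (3.40, 1.70 to 5.39) and Sgk1 (3.19, 2.03 to 3.88) overlapped one another, and Zbtb16 also overlapped Nr3c1 and Ddit4, and Fkbp5 overlapped Ddit4. Map3k6 was the lowest member, with a mean level of 0.381 CPM per kb and a range (0.162 to 0.692) below those of all others.

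The genes nearest to Fkbp5 in pattern over the 8 mice, by the same measure as above, were Pfkfb3 (0.20), Rpl18-ps2 (0.23), Pim3 (0.26), Zfp524 (0.28) and Angptl4 (0.28). The nearest other member was Zbtb16, at rank 141 (0.42). Pfkfb3 (log2 fold change 0.90), which encodes a regulator of glycolysis, and Pim3 (0.80), a kinase gene, were higher in Mc1r LKO mice, as a likeness to Fkbp5 requires. Rpl18-ps2 is named as a pseudogene of a ribosomal protein gene, and its counts may be shared with near-identical copies.

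Enzymes that activate or clear glucocorticoids showed no common direction. Of 19 listed genes 14 were tested, with 8 log2 fold changes above 0 and 6 below and a median of 0.0019. None passed an adjusted p of 0.05. At the unadjusted cut-off 2 were higher and 1 was lower, beside 2.64% and 2.66% of all tested genes. H6pd, which supplies the cofactor of 11β-hydroxysteroid dehydrogenase type 1, had 418, 451, 487 and 450 CPM in Control mice and 360, 382, 434 and 613 CPM in Mc1r LKO mice. The log2 fold change was -0.014 (SE 0.16), and mouse 182 was again the highest, as for Hsd11b1. Hsd11b2, the inactivating enzyme of kidney and colon, had 0 counts in 7 mice and 0.0808 CPM in Mc1r LKO mouse 157, below the level of 3 counts.

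The A-ring reductase genes Srd5a1 and Akr1d1, which start hepatic clearance, had log2 fold changes of -0.24 (SE 0.13, edgeR unadjusted p = 0.0936) and 0.0012 (SE 0.23). Cyp3a11, a cytochrome P450 that hydroxylates steroids, had 2399, 3063, 3275 and 3088 CPM in Control mice and 2794, 2187, 1526 and 1246 CPM in Mc1r LKO mice. The ranges overlapped through Control mouse 154 and Mc1r LKO mouse 141, and the log2 fold change was -0.61 (SE 0.23, edgeR unadjusted p = 0.0235, adjusted p = 0.734). It no longer passed the unadjusted cut-off without mouse 181 (-0.55) or without mouse 157 (-0.50), and was -0.39 (unadjusted p = 0.0893) without mice 181 and 182. The other genes past that cut-off were the aldo-keto reductase genes Akr1c12 (39.9 to 51.7 CPM in Control, 51.9 to 65.3 CPM in Mc1r LKO, log2 fold change 0.37, SE 0.11, unadjusted p = 0.00657) and Akr1c19 (19.6 to 29.7 and 23.4 to 46.0 CPM, 0.61, SE 0.20, unadjusted p = 0.0127). Akr1c19 missed the cut-off without mice 181 and 182, at 0.52 (unadjusted p = 0.0549). Akr1c and Cyp3a genes belong to families of close paralogs, between which reads may be lost or misplaced. The number past the cut-off was 5 in place of 3 without mouse 159, without mouse 156 and without mouse 182.

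Chaperones and coregulators of the receptor, 20 genes that were all tested, had 13 log2 fold changes above 0 and 7 below, with a median of 0.083. The sign of 11 of the 20 turned when a single mouse was left out. Without mice 181 and 182 the median was 0.0029. None passed the adjusted threshold or the unadjusted cut-off. Fkbp4, which encodes FKBP52, the counterpart of FKBP51 that favours receptor transport to the nucleus, had 151 to 198 CPM in Control and 179 to 267 CPM in Mc1r LKO mice (log2 fold change 0.24, SE 0.14). Hsp90ab1, the HSP90 gene that is always active, had a log2 fold change of 0.18 (SE 0.14). Nr3c2, the mineralocorticoid receptor gene, stood at 8.34 to 15.4 CPM and 10.4 to 11.8 CPM (-0.067, SE 0.17). Ncoa1, a coactivator gene, was the only one of the 20 whose genotypes did not overlap, and it was lower in Mc1r LKO mice (20.04 to 21.1 CPM against 21.7 to 23.9 CPM). Over all tested genes 4.16% did not overlap, 1.54% of them lower in Mc1r LKO mice by the same count, and nothing is read from this 1 gene.

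Among other genes known to be induced by glucocorticoids, more had values above than below the Control level in Mc1r LKO mice. Of 29 listed genes 27 were tested, 19 had log2 fold changes above 0 and 8 below, and the median was 0.37. The sign of 6 of the 27 turned when a single mouse was left out. None passed an adjusted p of 0.05 in edgeR's test, the lowest adjusted p being 0.490 for Cebpd, while Cebpd and Angptl4 passed in DESeq2. At the unadjusted cut-off 10 were higher and 0 lower, beside 2.64% and 2.66% of all tested genes. Without overlap 7 were higher, beside 2.63% of all tested genes. The list was written with earlier results of these mice known, so it is not independent evidence of a direction. Without mice 181 and 182, 11 passed the unadjusted cut-off on the higher side, beside 3.26% of the genes then tested. On the lower side 1 passed, Irs2 (-0.70), an insulin signalling gene named after its value was seen.

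Cebpd, a transcription factor gene, had 9.62, 7.34, 9.22 and 8.07 CPM in Control mice and 16.4, 15.7, 15.4 and 13.2 CPM in Mc1r LKO mice (log2 fold change 0.82, SE 0.13). Like Fkbp5, it had no overlap between the genotypes and kept a log2 fold change near its value when any mouse was left out (0.76 to 0.88). Its relative Cebpb had 94.9, 93.0, 99.3 and 52.4 CPM against 107, 169, 101 and 142 CPM (0.61, SE 0.22), and missed the unadjusted cut-off without mouse 156 (0.46). Angptl4, which encodes an inhibitor of lipoprotein lipase, had 88.8 to 129 CPM in Control and 170 to 184 CPM in Mc1r LKO mice (0.67, SE 0.13). Nfkbia, which encodes the NF-κB inhibitor IκBα, had 33.0 to 38.2 and 42.2 to 51.4 CPM (0.37, SE 0.09), and Foxo1, a transcription factor gene of the fasting response, had 30.6 to 37.1 and 41.4 to 56.3 CPM (0.45, SE 0.12). In these last 3 genes, too, the genotypes did not overlap. Nor did they in Cebpb, though only just (highest Control 99.3 CPM, lowest Mc1r LKO 101 CPM).

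The metallothionein genes Mt1 and Mt2, which encode metal-binding proteins and also answer to zinc and to inflammation, had the largest log2 fold changes of this list, at 2.41 (SE 0.56) and 2.77 (SE 0.74). Mouse 182 carried much of the size. The genotypes did not overlap in either gene. Mt1 had 6.93 to 16.5 CPM in Control mice and 28.9, 49.0, 39.3 and 177 CPM in Mc1r LKO mice, and without mouse 182 the log2 fold changes were 1.51 for Mt1 and 1.39 for Mt2. Both genes are close paralogs. Per1, a clock gene with glucocorticoid response elements, had 21.4, 10.1, 25.0 and 18.02 CPM in Control and 38.0, 34.6, 23.1 and 31.8 CPM in Mc1r LKO mice (0.76, SE 0.24, edgeR unadjusted p = 0.0105). Lpin1, which encodes a phosphatidate phosphatase, had 97.9 to 169 and 166 to 361 CPM (0.89, SE 0.25).

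Among the named genes of this list, Tat and Pck1 had larger standard errors than all others but Mt1 and Mt2. Tat, the tyrosine aminotransferase gene that served as a classical glucocorticoid target in liver, had 347, 362, 851 and 495 CPM in Control mice and 1299, 1138, 407 and 937 CPM in Mc1r LKO mice (log2 fold change 0.88, SE 0.37, edgeR unadjusted p = 0.0374). Control mice 181 and 193 were above Mc1r LKO mouse 157, and the cut-off was missed when mouse 154, 159, 193, 141 or 156 was left out (0.69 to 0.87). Pck1, the gluconeogenic enzyme gene, had 688 to 1856 and 976 to 2447 CPM (0.46, SE 0.32, edgeR unadjusted p = 0.182). Klf9, a transcription factor gene, had a log2 fold change of 0.17 (SE 0.21), which was -0.10 without mouse 182.

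**Figure D4:**
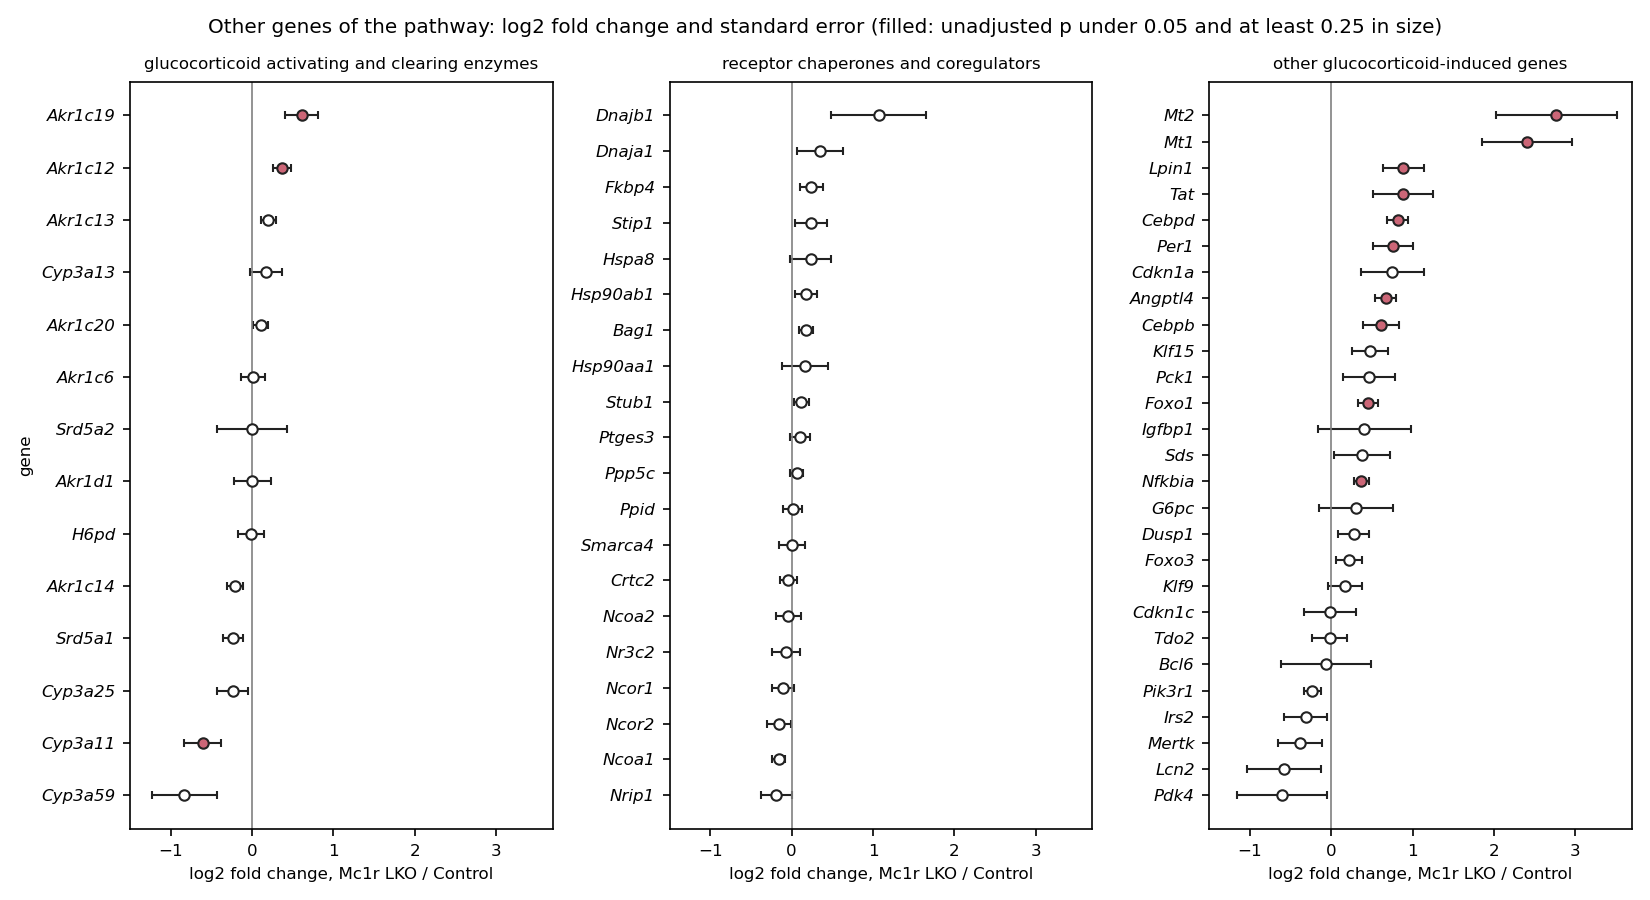
Log2 fold change of Mc1r LKO over Control with its standard error for the tested genes of 3 lists: 14 activating and clearing enzymes, 20 receptor chaperones and coregulators, and 27 other glucocorticoid-induced genes. Filled points passed the unadjusted cut-off, 3 of the enzymes, 0 of the chaperones and coregulators and 10 of the induced genes, beside 5.31% of all tested genes. None passed an adjusted p of 0.05 in edgeR, while DESeq2 called Cebpd and Angptl4.

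Several of these genes are also known to follow the time of day and acute stress. The 12 genes of the core clock list, which holds Per2 and Per3 while Per1 was placed with the glucocorticoid-induced genes above, were all tested. They summed to 369 to 536 CPM in Control and 353 to 504 CPM in Mc1r LKO mice, 4 had log2 fold changes above 0 and 8 below, and Cry2 (-0.26, SE 0.11) was the only one of the 12 past the unadjusted cut-off, which it missed in DESeq2, without the filter, when mouse 159, 181, 193, 157 or 182 was left out, and without mice 181 and 182 together (-0.16). Without those 2 mice the clock gene Ciart passed it instead (1.30). The clock output gene Dbp ranged from 26.6 to 111 CPM in Control and from 13.1 to 113 CPM in Mc1r LKO mice. The 10 immediate early genes all had log2 fold changes above 0 with 8 mice, but 6 of them turned below 0 when a single mouse was left out, and none passed the unadjusted cut-off. Their sums were 167 to 226 CPM in Control mice and 204 to 248 CPM in Mc1r LKO mice other than mouse 182, which had 354 CPM. Their median log2 fold change of 0.32 was 0.13 without mice 181 and 182, where Ier3 alone passed the cut-off (1.02). The part of either in the members' levels was not tested.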

How the data were processed

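Liver RNA of 4 Control and 4 Mc1r LKO mice was sequenced on the Illumina NovaSeq platform. The authors trimmed reads with Trim Galore 0.6.6, aligned them with STAR 2.7.6a and deposited raw counts of read pairs on each gene from featureCounts 2.0.1, counted by strand (option 2) on the Ensembl release 102 annotation of GRCm38 per the file headers, where the methods write GRCh38. The deposited counts carry no normalization or filter. Coordinates are those of the count tables, and promoter coordinates are those of RefSeq on GRCm38.p6. Symbols matched 55141 of 55487 identifiers, and no exon base of a member was shared with another gene on its strand.

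From the counts, genes were filtered with filterByExpr (minimum count 10, minimum total count 15), normalized by TMM and tested with the quasi-likelihood test of edgeR 4.0.16 in R 4.3.3, with Benjamini-Hochberg adjustment over 13400 genes. CPM of genes not kept are scaled as for kept genes, by the total over kept genes and its TMM factor. The CPM of 3 counts is scaled by the total count alone. A prior count of 2 was added for log2 CPM. Total counts of 10773151 to 24763375 set the counting error, and the limit for a count of 0 covers counting error only. No 2 mice of a genotype were alike within sampling noise (smallest chi-square per degree of freedom 11.0).

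The members and lists were chosen with earlier results of these data known, and no p-value is given for a member. Named were all 10 members, list genes past the unadjusted cut-off, 12 list genes in any case (H6pd, Hsd11b2, Srd5a1, Akr1d1, Cyp3a11, Fkbp4, Hsp90ab1, Nr3c2, Per1, Klf9, Tat and Pck1), and the 5 genes nearest to Fkbp5. Ncoa1, Hsp90aa1, Hspa8, Dnajb1, Cry2, Dbp, Irs2, Ciart and Ier3 were named after their values were seen, and cell type markers came from lists of general knowledge. Alternatives were DESeq2 1.42.0, limma-voom 3.58.1, RLE size factors, scaling by library size only, no filter beyond 1 count, leaving out each mouse, and leaving out mice 181 and 182 together. Each mouse is a replicate, and no batch is named for these samples.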

Additional observations from a re-analysis of the deposited data

Results flagged for a closer look

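Of the 20 sets of 4 mice (10 members in each genotype), 1 held a mouse far from the others. For Errfi1, Control mouse 181 had 919 CPM while the other 3 Control mice had 458 to 535 CPM, a gap of 0.832 of the whole range and just past the 95% critical value of Dixon's criterion. Chance gives about 1 such case in 20 sets, which is the number found.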

How the results depend on the processing

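The 10 members' log2 fold changes and their median were compared across DESeq2, limma-voom, RLE size factors, library size only and no filter. They were also compared without mice 181 and 182 together. All moved by less than the SD between mice of a genotype. Leaving out 1 mouse of each genotype can hardly pass that bound, so nothing is read from it. Without mice 181 and 182, Ddit4 went from 0.97 to 1.28 and Hsd11b1 from 0.16 to 0.00096. With 1 mouse left out the members' median was 0.63 to 0.86. The number of genes past an adjusted p of 0.05 was 0 in the edgeR test, 16 in DESeq2 and 1 (Fkbp5, chosen on this contrast) without the filter, where 24087 genes were tested, and 0 whichever mouse was left out. At the unadjusted cut-off 354 genes were higher and 357 lower. Scaling by library size only gave 169 higher and 500 lower (25.3% higher in place of 49.8%), with a median over all genes of -0.056, and 614 were lower without the filter. Without 1 mouse 287 to 522 were higher and 252 to 467 lower. Genes without overlap numbered 352 higher and 206 lower, 166 and 337 with library size only, 1010 and 729 without mice 181 and 182, where 3 mice against 3 overlap less often by construction, and 525 to 798 and 349 to 474 without 1 mouse. Enzymes past the cut-off numbered 3, but 5 with library size only and 2 to 5 without 1 mouse. Chaperones and coregulators numbered 0, but 1 without the filter, 1 without mice 181 and 182, and 0 to 1 without 1 mouse. Small values turned sign. Akr1d1 was -0.034 in limma-voom, -0.054 with library size only and -0.12 without mice 181 and 182 (-0.27 to 0.15 without 1 mouse), and Klf9 was -0.038 without mice 181 and 182 (-0.10 to 0.30 without 1 mouse). H6pd ranged from -0.20 to 0.086 and Nr3c2 from -0.20 to 0.10 without 1 mouse. Akr1c19 (0.52, edgeR unadjusted p = 0.0549) and Cyp3a11 missed the cut-off without mice 181 and 182. The causes were not tested. No paired analysis was done because the labels give no litter, cage or other pairing. Whether mice of the 2 genotypes shared a litter or cage is unknown. Counts of 8 to 49 per mouse limit Map3k6.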
